A study of Homo sapiens with 28 samples.

Results

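The 6 LoVo RNA-seq libraries, of 28 samples in the series, were 3 labelled TWIST1 shRNA and 3 labelled shRNA control, and they were compared by these labels alone. LoVo is an established human colorectal cancer cell line, and the series otherwise holds MDST8, another colorectal line, as WT cells and single-cell-derived TWIST1 knockout clones, and TWIST1 ChIP-seq in both lines. The control libraries carry the replicate letters A, B and C and the genotype label wild type. The shRNA libraries carry the numbers 1, 2 and 3 and the genotype label TWIST1 knockdown, and all cells grew in DMEM with serum. The paper lists 3 TWIST1 target sequences for its lentiviral shRNA and names shRNA-1 for its LoVo comparison. The labels do not say which sequence libraries 1, 2 and 3 carry. The sources used here describe virus made in HEK293T packaging cells. They do not say whether the libraries of a group came from separate infections or from dishes of 1 infected population. The p-values therefore measure the spread between these libraries, which may be technical.

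TWIST1 is a basic helix-loop-helix transcription factor that pairs with E proteins, binds E-box DNA and is known for driving epithelial-mesenchymal transition. A short hairpin RNA lowers the mRNA it matches, so the targeted gene checks the labels. TWIST1 (chr7:19020991-19117636 in hg38, minus strand) had 73, 89 and 93 counts with the TWIST1 shRNA label and 0, 0 and 0 with the control label. TWIST1 was thus at least 28.4-fold higher with the knockdown label, against a floor of 3 counts per library, and the exact two-sided permutation p was 0.1, the smallest that 3 libraries against 3 can give. The counts go against the labels. Whether labels were exchanged between groups, and whether both groups come from the same cell line, was not tested, and LoVo is the name that the labels give. Every direction below is that of the libraries as labelled, and "higher" or "lower" means with the TWIST1 shRNA label relative to the control label.

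The libraries held 16567606 to 20889529 counts. Libraries of 1 group resembled each other closely, with a Pearson correlation of log2(CPM + 1) across genes of 0.996 for all 3 control pairs and 0.992 to 0.995 for the shRNA pairs, against 0.819 to 0.826 for the 9 pairs across groups. No pair agreed within sampling noise, as the chi-square per degree of freedom was 3.13 or more. It was 3.13 to 4.25 within the controls and 4.74 between shRNA libraries 2 and 3. Between shRNA library 1 and libraries 2 and 3 it was 23.3 and 35.8, so library 1 stood apart from its group. The share of counts from mitochondrial genes was 3.49 to 3.96% in the controls and 5.47 to 10.9% in the shRNA libraries, highest in shRNA library 1 (exact permutation p = 0.1). Counts from genes of cytosolic ribosomal proteins made up 8.76 to 9.11% in the controls and 5.03 to 5.71% in the shRNA libraries (exact permutation p = 0.1, a measure chosen after its values were seen). The labels name no batch for these libraries, so a difference in preparation and the group cannot be told apart.

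Counts were tested for 14270 genes. By edgeR's quasi-likelihood test, 3795 genes were higher, 26.6% of those tested, and 3725 were lower, 26.1%, so that 52.7% were called in either direction. A gene was called when its log2 fold change was beyond 0.58 on either side of 0 and its p, adjusted by Benjamini-Hochberg over all 14270 genes, was under 0.05. Log2 fold changes are given ± SE, and levels as CPM, the library-scaled count after TMM normalisation. The 2 groups did not overlap for 79.8% of the genes tested. These shares are the background against which every list below has to be read. Changes of more than 8-fold were called for 634 genes that were higher and 529 that were lower.

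The genes named first are the 12 protein-coding ones with the largest ratio among those higher with the shRNA label. NTSR1, the G protein-coupled receptor of the gut peptide neurotensin, had 0, 0 and 0 counts in the controls and 5538, 5688 and 7014 in the shRNA libraries, at least 2026-fold higher (adjusted p = 9.9e-16). COL6A2, a chain of the microfibrillar collagen VI, had no count in any control and 5233, 5091 and 6052 counts with the shRNA label, at least 1818-fold higher. The cancer-testis antigen gene MAGEB2 showed the same split, with 0 counts in each control and 2368, 2064 and 2242 in the shRNA libraries (at least 739-fold). For these 3 genes, and for the potassium channel subunit gene KCNG1 with 1598, 1538 and 1936 counts against 0 (at least 563-fold), every control library was thus at 0.

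VCAN, which codes for the matrix proteoglycan versican, held a single count among the controls and 4472, 3967 and 4249 counts in the shRNA libraries, a ratio of 12741 (95% counting interval 2286 to 503287). RFLNB, a filamin-binding protein gene, had 1 control count against 2317, 2309 and 2542, a ratio of 7198 (95% counting interval 1291 to 284346). FGF19, a secreted growth factor of the gut, had 2 control counts against 1948, 1950 and 2251, a ratio of 3087 (95% counting interval 854 to 25499). The other leading genes were also close to absent from the controls. CRABP2, a retinoic acid carrier, was at 0.364, 0.0991 and 0.506 CPM in the controls and 188, 222 and 229.6 CPM in the shRNA libraries, 661-fold higher (log2 fold change 9.38 ± 0.17, adjusted p = 5.9e-17). The actin crosslinker filamin C (FLNC) went from 0.320 ± 0.114 to 201 ± 18.03 CPM (mean ± SD, n = 3 in each group), 627-fold, and the carbohydrate-binding protein galectin-1 (LGALS1) from 0.503 ± 0.178 to 230.4 ± 29.9 CPM, 458-fold. NPW, a neuropeptide gene, had 0, 3 and 7 counts in the controls and 2144, 2291 and 2958 in the shRNA libraries, 757-fold higher, with a log2 fold change of 9.49 that became 10.58 without control replicate C. The chondroitin sulfotransferase gene CHST15 had 2, 3 and 0 counts in the controls and 2015, 1937 and 1816 in the shRNA libraries, 1183-fold higher, with a log2 fold change of 10.08 that became 10.67 without control replicate B. Both folds thus rest on a few control counts.

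The genes named next are those with the largest ratio among the protein-coding genes lower with the shRNA label. HPGD, the enzyme that inactivates prostaglandins, was at 244, 280.3 and 256 CPM in the controls and 3.14, 3.56 and 3.05 CPM in the shRNA libraries, 80.1-fold lower (log2 fold change -6.32 ± 0.09, adjusted p = 1.5e-17). REG4, a secreted lectin of intestinal secretory cells, was at 117, 120.3 and 113 CPM against 1.46, 1.69 and 1.61 CPM, 73.6-fold lower (log2 fold change -6.20 ± 0.10, adjusted p = 1.9e-17). Both genes were picked for a large ratio among genes whose groups do not overlap, so the gap between their groups was fixed by that choice.

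The amino acid transporter gene SLC7A7 went from 243 ± 7.64 to 3.48 ± 0.801 CPM, the elastase inhibitor gene PI3 from 135 ± 7.02 to 1.82 ± 0.307 CPM, the tetraspanin-like gene TM4SF1 from 222 ± 5.21 to 3.35 ± 0.599 CPM and the estradiol dehydrogenase gene HSD17B2 from 57.2 ± 2.56 to 0.816 ± 0.153 CPM (mean ± SD, n = 3 in each group). Placental-type alkaline phosphatases were lower too, ALPG by 148-fold and ALPP by 89.0-fold, and CEACAM6, a carcinoembryonic cell adhesion gene, by 85.3-fold. ALPG and ALPP are near-identical neighbours and CEACAM6 has close paralogs, so how reads were split between such copies is uncertain. ROBO2, a receptor for the guidance cue SLIT, had 439, 538 and 517 counts in the controls and 0 in each shRNA library, at least 165-fold lower. SPTLC3, a subunit of the enzyme that starts sphingolipid synthesis, had 326, 488 and 359 counts against 0, at least 129-fold lower.

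**Figure D1:**
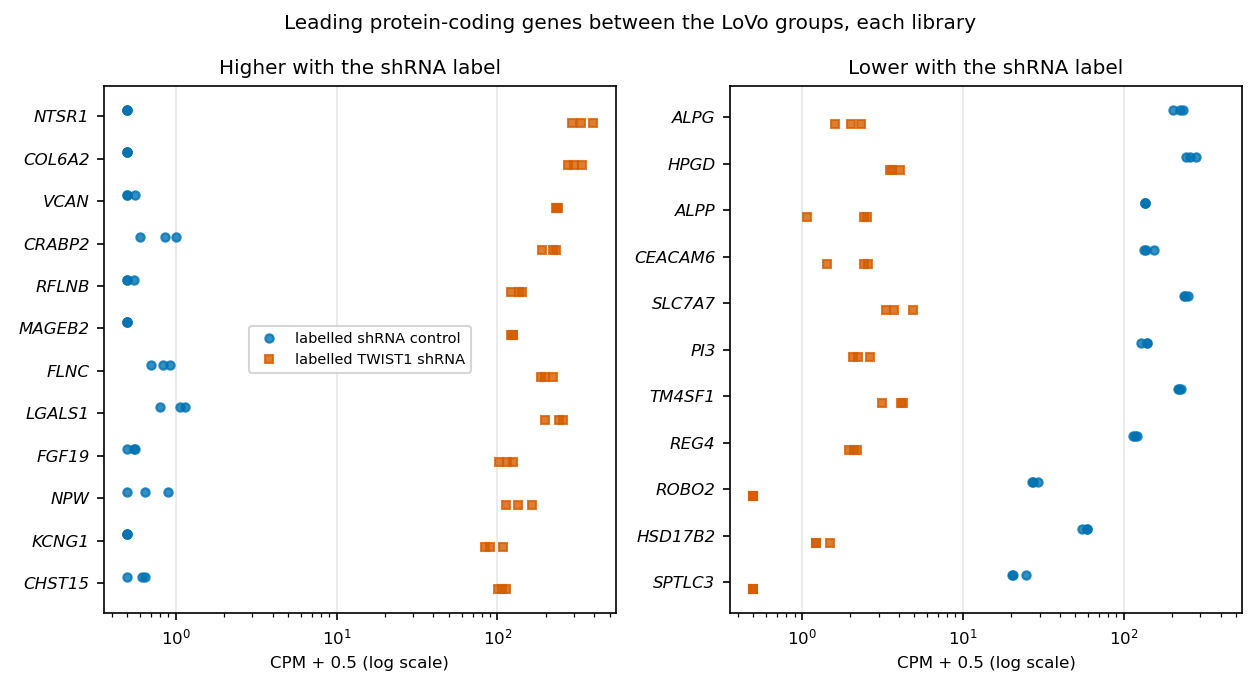
Points give TMM-normalised CPM + 0.5 on a log axis for each library, circles for the 3 labelled shRNA control and squares for the 3 labelled TWIST1 shRNA, for the 12 leading protein-coding genes that were higher and 11 of the 12 that were lower. The genes were picked among those whose groups do not overlap, so the separation drawn was fixed by that choice. ROBO2 and SPTLC3 sit at 0 CPM in each shRNA library.

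Genes without a count in 1 group were tallied separately, as protein-coding genes with 0 counts in all 3 libraries of 1 group and at least 100 counts in each library of the other. There were 45 such genes at 0 in the controls and 3 at 0 in the shRNA libraries. With the same rule, MDST8 WT against each of the 5 TWIST1 knockout clones gave 0, 2, 0, 0 and 1 genes, and the difference from the 48 genes of LoVo was not tested. The 45 genes spanned autosomes and chromosome X and included the transcription factors LMX1B (471, 496 and 617 counts), ONECUT3 (1375, 1189 and 1570) and IRX4 (267, 258 and 305). They also held LIFR, the receptor of leukemia inhibitory factor, with 516, 415 and 461 counts. At 0 in the shRNA libraries were ROBO2, SPTLC3 and PADI1, a peptidylarginine deiminase gene with 188, 216 and 195 counts in the controls. Of these names, the 5 other than ROBO2 and SPTLC3 were picked after their values were seen.

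Promoter sequence was read from RefSeq (GRCh38.p14, 250 bases before to 50 after the gene's start), which held an entry for 30 of the 45 genes at 0 in the controls and for 2 of the 3 at 0 in the shRNA libraries. The 30 promoters had a median of 21 CpG dinucleotides (range 1 to 47), and 60.0% had 20 or more, against a median of 27 and 72.7% for the 10154 promoters of tested protein-coding genes and a median of 7 and 25.4% for those of protein-coding genes below the filter. The RefSeq start lay within 1000 bases of the 5′ end that the count table gives for 23 of the 30 and 1 of the 2 genes, and farther away for the rest, ROBO2 and LIFR among them. Over those 23 promoters the median was again 21 and 65.2% had 20 or more, against 75.4% of 8562 tested and 26.1% of 4448 untested ones that met the same limit. The promoters of the 3 genes with the most counts that were at 0 in the controls and of PADI1, at 0 in the shRNA libraries, all with a start at the 5′ end of the count table, are printed 5′ to 3′ with each CpG in capitals, because DNA methylation acts on CpG. Those of NTSR1 (chr20:62708586-62708885, plus strand) and COL6A2 (chr21:46097862-46098161, plus strand) held 45 and 36 CpG, that of MAGEB2 (chrX:30215313-30215612, plus strand) 21 and that of PADI1 (chr1:17204878-17205177, plus strand) 4. Methylation was not measured in these samples.
NTSR1: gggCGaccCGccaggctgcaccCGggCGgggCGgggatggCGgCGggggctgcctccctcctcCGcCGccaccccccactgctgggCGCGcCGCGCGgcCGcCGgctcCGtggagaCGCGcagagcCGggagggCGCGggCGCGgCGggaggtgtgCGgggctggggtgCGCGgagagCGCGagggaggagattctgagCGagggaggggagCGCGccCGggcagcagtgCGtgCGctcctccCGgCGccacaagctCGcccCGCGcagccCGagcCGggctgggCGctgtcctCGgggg
COL6A2: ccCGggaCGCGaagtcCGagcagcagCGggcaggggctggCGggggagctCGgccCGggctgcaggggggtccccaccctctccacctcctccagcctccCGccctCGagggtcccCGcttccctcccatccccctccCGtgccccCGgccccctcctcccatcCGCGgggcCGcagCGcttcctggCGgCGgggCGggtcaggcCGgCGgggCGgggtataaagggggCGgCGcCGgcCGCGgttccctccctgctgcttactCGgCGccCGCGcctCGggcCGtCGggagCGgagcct
MAGEB2: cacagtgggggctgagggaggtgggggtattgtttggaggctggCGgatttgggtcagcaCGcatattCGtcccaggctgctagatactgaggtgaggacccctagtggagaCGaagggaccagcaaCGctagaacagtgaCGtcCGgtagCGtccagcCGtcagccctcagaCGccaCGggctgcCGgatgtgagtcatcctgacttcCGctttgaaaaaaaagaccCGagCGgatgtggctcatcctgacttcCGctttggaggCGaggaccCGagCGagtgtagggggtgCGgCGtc
PADI1: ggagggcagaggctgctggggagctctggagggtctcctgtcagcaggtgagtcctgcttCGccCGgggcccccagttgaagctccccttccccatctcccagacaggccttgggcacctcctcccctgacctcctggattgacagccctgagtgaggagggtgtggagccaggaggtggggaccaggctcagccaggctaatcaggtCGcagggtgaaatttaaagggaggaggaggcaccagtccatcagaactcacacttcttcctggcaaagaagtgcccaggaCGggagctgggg

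Genes of colon epithelial identity were lower almost throughout. Intestinal cells are specified by the homeobox factors CDX1 and CDX2 together with HNF4A and GATA6, which switch on brush border, adhesion and mucin genes. Of 32 intestinal identity genes, 27 passed the filter on low counts. Of these, 25 were lower, 1 was higher and 1 was not called, with a median log2 fold change of -3.27 against 0.01 for all genes tested. CDX2 was at 250.05, 251 and 273 CPM in the controls and 29.4, 30.1 and 34.8 CPM in the shRNA libraries, 8.21-fold lower (log2 fold change -3.04 ± 0.07, adjusted p = 1.3e-15). CDX1 was at 24.7, 24.6 and 31.0 CPM against 2.83, 4.03 and 4.66 CPM, 6.97-fold lower (log2 fold change -2.80 ± 0.16, adjusted p = 5.6e-11). Both caudal factors were thus still detected with the shRNA label, well below the lowest control. HNF4A went from 171 ± 6.50 to 10.9 ± 0.796 CPM and GATA6 from 104 ± 3.62 to 14.5 ± 0.833 CPM (mean ± SD, n = 3 in each group), both called lower and named here for their role.

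The smallest decrease called was that of KLF5, a crypt transcription factor, from 512 ± 11.5 to 286 ± 8.92 CPM (log2 fold change -0.84 ± 0.06, adjusted p = 5.2e-10). The effector genes given next were named for their large decreases. The mucin gene MUC2 had a log2 fold change of -2.85, a smaller decrease than that of CDX2. CDH17, the liver-intestine cadherin, was at 679, 700.1 and 644 CPM in the controls and 18.05, 23.9 and 21.2 CPM in the shRNA libraries, 32.0-fold lower (log2 fold change -5.00 ± 0.09, adjusted p = 4.3e-17). VIL1, which codes for the brush border actin bundler villin, was at 36.9, 40.3 and 35.8 CPM against 1.41, 2.51 and 1.94 CPM (log2 fold change -4.28 ± 0.14, adjusted p = 8.7e-14). TFF3, the trefoil peptide of goblet cells, had 69, 107 and 74 counts in the controls and 0 in each shRNA library, at least 27.4-fold lower.

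**Figure D2:**
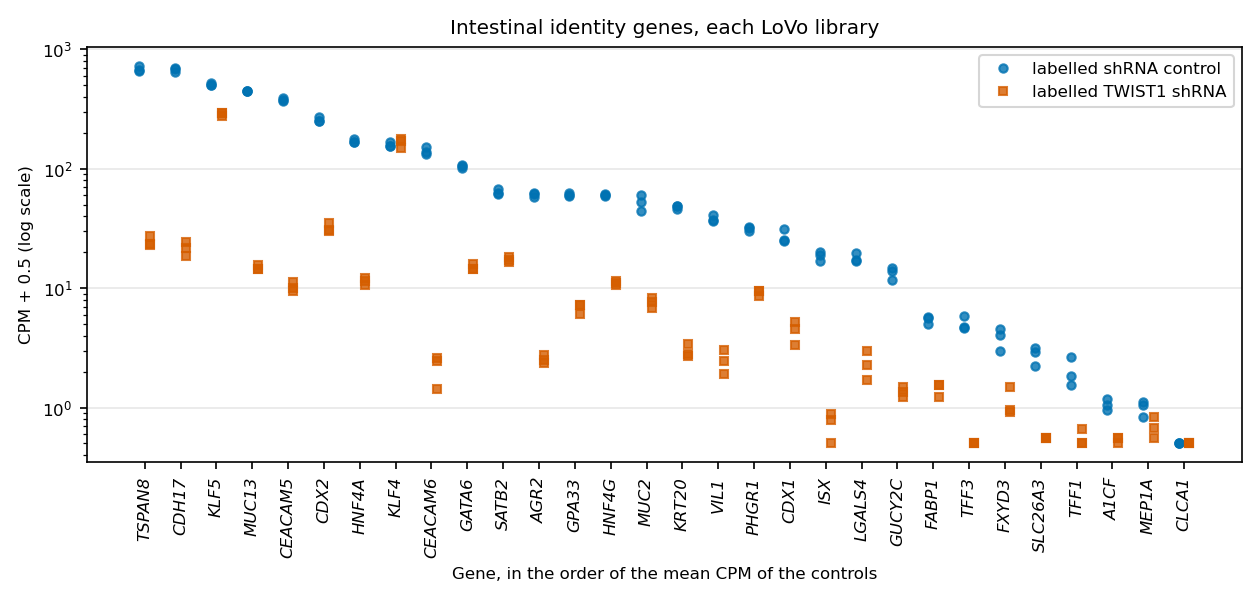
Each LoVo library's TMM-normalised CPM + 0.5 (log axis) is shown for 30 of the 32 intestinal identity genes, in the order of their mean in the controls, with circles for control and squares for shRNA libraries. The squares lie below the circles from TSPAN8 down to FXYD3 apart from KLF4, whose groups overlap.

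The labelled tissue was checked with 12 markers of colon epithelium, fixed as a list that shares 8 genes with the intestinal one. Both groups expressed all 12, and 11 of the 12 were lower. Their summed level was 8146 to 8335 CPM in the controls and 3878 to 4270 CPM in the shRNA libraries. KRT8 and KRT18 (keratin 18, from 1833 ± 27.6 to 968 ± 39.3 CPM) made up most of this sum in both groups. The sum therefore says little about the intestinal members, such as KRT20, which went from 47.3 ± 1.18 to 2.48 ± 0.384 CPM. The general epithelial markers fell least, among them CDH1, which was not called. KRT8 (keratin 8) went from 4386 ± 53.9 to 2578 ± 156 CPM and EPCAM from 578 ± 24.3 to 319.8 ± 7.65 CPM. The intestinal CDH17 and VIL1 fell most. In bulk RNA, fewer cells of a type and less RNA per cell cannot be told apart. Over the 2361 protein-coding genes that were lower and had at least 20 CPM in the controls, the shRNA libraries kept a median of 48.2% of the control level, and 77 genes kept under 5%, of which 2 (ROBO2 and SPTLC3) were at 0.

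WNT target and stem cell genes moved in both directions. Of 25 listed genes 18 passed the filter, 8 were lower and 5 higher. LGR5, the R-spondin receptor that marks crypt stem cells, was at 384, 387 and 384 CPM in the controls and 22.5, 23.1 and 22.2 CPM in the shRNA libraries, 17.1-fold lower (log2 fold change -4.09 ± 0.06, adjusted p = 1.8e-17). AXIN2, a WNT feedback inhibitor, was at 191, 183 and 185 CPM against 15.9, 15.2 and 14.8 CPM (log2 fold change -3.603 ± 0.07, adjusted p = 6.6e-17), and the WNT effector LEF1 at 38.0, 37.5 and 36.2 CPM against 1.15, 1.98 and 2.11 CPM (log2 fold change -4.42 ± 0.15, adjusted p = 6.8e-14). The spread within each group was small beside these gaps. DKK1, a secreted WNT antagonist, moved the other way, from 66.4, 73.2 and 63.7 CPM to 476, 473 and 470.4 CPM, 6.98-fold higher (log2 fold change 2.80 ± 0.06, adjusted p = 6.9e-16). CD44, a hyaluronan receptor and WNT target, was also higher, from 226 ± 7.38 to 832 ± 20.7 CPM (log2 fold change 1.88 ± 0.06, adjusted p = 2.7e-14).

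A further list held TWIST1 itself with its dimer partners and their inhibitors. E proteins pair with TWIST1 on DNA, and ID proteins keep E proteins off DNA. Of 11 genes in this list 4 were lower, 2 higher, 3 were not called and 2 fell below the filter, and the 2 higher were TWIST1 and ID1. With 52.7% of all genes tested called in either direction, nothing is read from this count. TCF4, an E protein, had 109, 141 and 97 counts in the controls and 0, 1 and 0 in the shRNA libraries, a ratio of 346 (95% counting interval 61.6 to 13687). HAND1, a partner of the same family, was at 46.4, 45.9 and 42.5 CPM against 0.419, 0.642 and 1.11 CPM, 62.1-fold lower (log2 fold change -5.95 ± 0.17, adjusted p = 9.4e-15). ID1 was at 95.6, 94.4 and 100.4 CPM in the controls and 421, 453 and 533 CPM in the shRNA libraries, 4.85-fold higher (log2 fold change 2.28 ± 0.08, adjusted p = 1.2e-13). TWIST2, the paralog of TWIST1, had no count in any of the 6 libraries.

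Genes of epithelial-mesenchymal transition did not move as a block. Of 22 transcription factor and mesenchymal genes, 15 passed the filter, 8 were lower, 4 higher and 3 not called. SPARC, a matricellular protein gene, was at 37.0, 36.1 and 37.6 CPM in the controls and 1.15, 1.11 and 1.33 CPM in the shRNA libraries, 30.8-fold lower (log2 fold change -4.94 ± 0.13, adjusted p = 3.3e-15). PRRX1, a homeobox factor of mesenchyme, had 79, 62 and 72 counts against 1, 2 and 2 (log2 fold change -5.32 ± 0.43, adjusted p = 6.9e-09). The receptor tyrosine kinase gene AXL was at 13.6, 12.3 and 14.4 CPM in the controls and 139, 156 and 156 CPM in the shRNA libraries, 11.2-fold higher (log2 fold change 3.49 ± 0.08, adjusted p = 6.8e-16). The mesenchymal list thus held large differences of either sign. Of the SNAIL factors, SNAI1 was at 18.995 ± 2.57 CPM in the controls and 15.9 ± 1.22 CPM in the shRNA libraries and was not called (log2 fold change -0.26 ± 0.11, adjusted p = 0.046), and SNAI2, below the filter, had 1, 0 and 0 counts in the controls and 53, 29 and 32 in the shRNA libraries, a ratio of 114 (95% counting interval 20.1 to 4561).

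All 30 genes of epithelial junctions and epithelial splicing passed the filter, of which 14 were lower, 5 higher and 11 not called. CDH1, the adherens junction protein E-cadherin, was at 269.7, 271 and 265 CPM in the controls and 170.1, 196 and 195 CPM in the shRNA libraries and missed the fold threshold (log2 fold change -0.52 ± 0.06, adjusted p = 9.8e-07). OVOL2, a repressor of mesenchymal genes, was at 17.4, 17.8 and 19.4 CPM against 2.67, 3.09 and 3.89 CPM (log2 fold change -2.50 ± 0.15, adjusted p = 1.2e-10), and the desmosomal plakophilin PKP2 fell from 167 ± 2.71 to 52.9 ± 4.29 CPM (log2 fold change -1.65 ± 0.07, adjusted p = 7.5e-13). In contrast, ESRP1, a splicing factor of epithelial cells, was at 16.7, 14.2 and 15.6 CPM in the controls and 395, 377 and 394 CPM in the shRNA libraries, 25.1-fold higher (log2 fold change 4.65 ± 0.07, adjusted p = 1.9e-17). The membrane protease gene PRSS8 was at 1.88, 1.88 and 1.18 CPM against 46.5, 56.6 and 56.4 CPM, 32.3-fold higher. The epithelial list thus held large differences of either sign too.

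**Figure D3:**
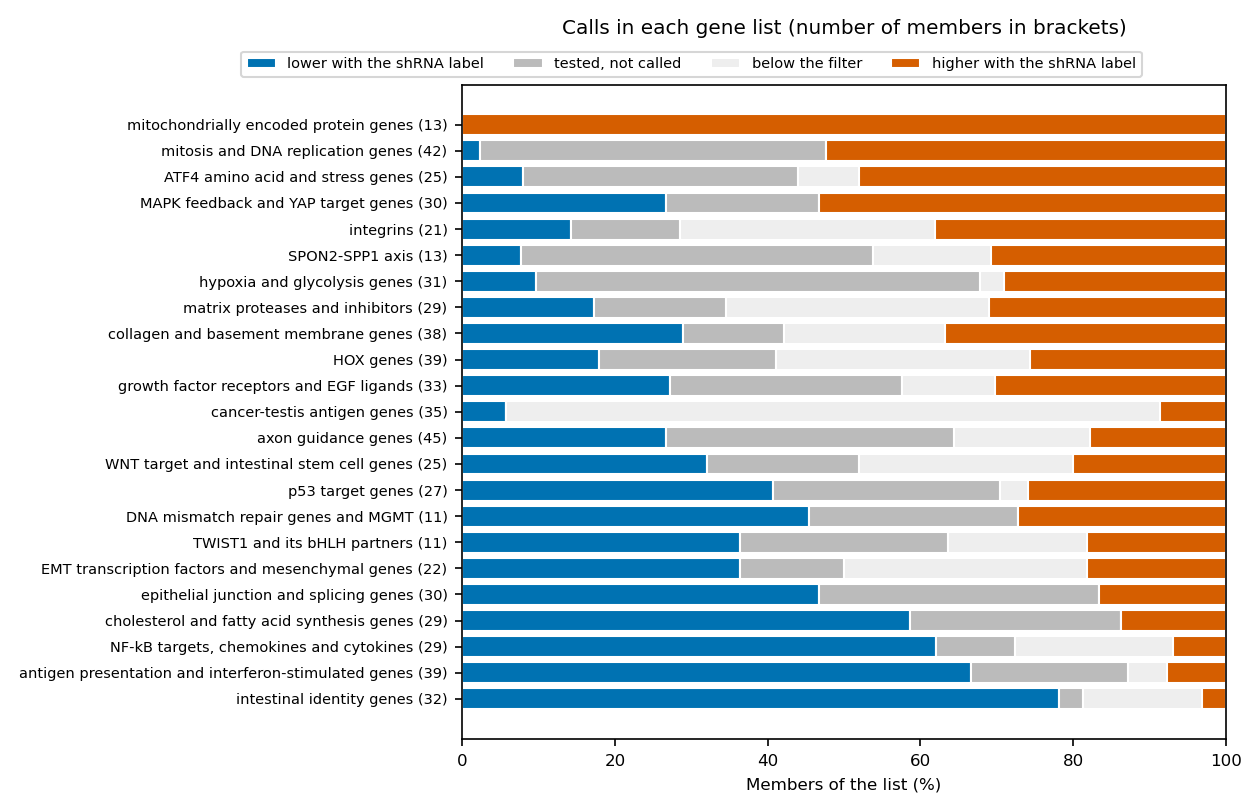
Bars give, for each of 23 gene lists, the percentage of members that were lower with the shRNA label, tested and not called, below the filter on low counts, and higher, with the list's size in brackets. Intestinal identity genes stand at the bottom with 25 of 32 lower, and the mitochondrially encoded protein genes at the top with 13 of 13 higher.

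Extracellular matrix genes differed in both directions. Of 38 collagen and basement membrane genes, 30 passed the filter, 14 were higher, 11 lower and 5 not called. Besides COL6A2, COL4A5, a chain of basement membrane collagen IV, had 3, 4 and 0 counts in the controls and 581, 415 and 500 in the shRNA libraries, 217-fold higher (log2 fold change 7.67 ± 0.27, adjusted p = 1.3e-13). COL1A1, a chain of the fibrillar collagen I, was at 2.36, 2.38 and 4.61 CPM against 79.5, 52.8 and 62.7 CPM (log2 fold change 4.39 ± 0.19, adjusted p = 2.6e-12), while its partner chain COL1A2 had 1 count in all 6 libraries together. Nidogen 2 (NID2), a basement membrane linker, went the other way, with 35.0, 29.7 and 35.3 CPM in the controls and 0.994, 1.58 and 1.22 CPM in the shRNA libraries, 26.4-fold lower (log2 fold change -4.72 ± 0.15, adjusted p = 5.5e-14), and COL4A2 was 11.6-fold lower (log2 fold change -3.50 ± 0.33, adjusted p = 4.7e-08).

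Integrins, the receptors that hold cells to this matrix, were more often higher than lower, with 8 of 21 higher, 3 lower, 3 not called and 7 below the filter. ITGA3, a subunit of the laminin receptor, was at 53.4, 50.9 and 58.1 CPM in the controls and 1181, 1342 and 1484 CPM in the shRNA libraries, 24.7-fold higher (log2 fold change 4.63 ± 0.09, adjusted p = 1.2e-16). The collagen receptor subunit ITGA2 was at 51.4, 52.6 and 50.6 CPM against 290.3, 298 and 302 CPM (log2 fold change 2.53 ± 0.06, adjusted p = 7.3e-16). ITGB6 and ITGB8, which pair with the αv subunit, were lower, from 7.47 ± 0.832 to 0.471 ± 0.232 CPM (log2 fold change -3.95 ± 0.29, adjusted p = 2.1e-09) and from 19.8 ± 1.91 to 3.397 ± 0.428 CPM (log2 fold change -2.54 ± 0.14, adjusted p = 5e-11). ITGA1, at 7.19 ± 0.492 CPM in the controls and 4.88 ± 0.827 CPM in the shRNA libraries, was not called and passed the threshold without control library B or shRNA library 1 (log2 fold changes -0.60 and -0.67).

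Of 29 matrix proteases and inhibitors, 9 were higher, 5 lower, 5 not called and 10 below the filter. The kallikrein-related peptidase gene KLK6 had a single control count and 929, 849 and 899 counts in the shRNA libraries, a ratio of 2688 (95% counting interval 482 to 106218). Matrilysin (MMP7), an epithelial metalloproteinase, was at 18.4, 20.9 and 17.5 CPM in the controls and 0.889, 0.175 and 0.444 CPM in the shRNA libraries, 37.6-fold lower (log2 fold change -5.18 ± 0.25, adjusted p = 9.3e-12, and a log2 fold change of -5.86 without shRNA replicate 1), and TIMP4, a metalloproteinase inhibitor, was 6.02-fold lower (log2 fold change -2.59 ± 0.34, adjusted p = 2.7e-06). MMP1 and MMP2, which are mostly made by stromal cells, stayed below the filter, with at most 38 and 14 counts in any library.

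The axis of SPON2, a secreted matrix protein, and SPP1 (osteopontin), a ligand of integrins and CD44, is the pathway that the study went on to follow. The paper lists SPON2 among the genes that were lower in TWIST1 knockout and knockdown cells. By the labels used here SPON2 was not lower in LoVo. SPON2 had 22, 16 and 26 counts in the controls and 39, 22 and 50 in the shRNA libraries. These groups overlapped, and the call at 1.70-fold higher (log2 fold change 0.78 ± 0.34, adjusted p = 0.047) was lost by DESeq2, limma with voom, 2 of the filters and without any 1 of control library A, B or C or shRNA library 3, where its log2 fold change ran from 0.51 to 0.94. SPP1 fell below the filter with 0, 0 and 1 counts against 18, 22 and 16, a ratio of 56.2 (95% counting interval 9.69 to 2260.3). Among the receptors and kinases of the axis, ITGA5, a subunit of the fibronectin receptor, was at 29.5, 26.1 and 25.8 CPM in the controls and 113, 119 and 125 CPM in the shRNA libraries, 4.39-fold higher (log2 fold change 2.13 ± 0.07, adjusted p = 8.6e-14). AKT2, a kinase downstream of integrins, fell from 108 ± 4.78 to 68.8 ± 5.72 CPM (log2 fold change -0.64 ± 0.07, adjusted p = 2.4e-07), a call lost with upper-quartile factors (log2 fold change -0.55). In all, 4 of the 13 genes were higher, 1 was lower, 6 were not called and 2 were below the filter.

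Genes induced by MAPK signalling and by YAP formed another group that was mostly higher. ERK signalling switches on immediate early genes together with DUSP and SPRY feedback inhibitors, and YAP acts with TEAD factors on growth and adhesion genes. All 30 listed genes were tested, 16 were higher, 8 lower and 6 not called, with a median log2 fold change of 1.13. EGR1, an immediate early transcription factor, was at 36.4, 30.5 and 41.9 CPM in the controls and 756, 835 and 815 CPM in the shRNA libraries, 22.1-fold higher (log2 fold change 4.47 ± 0.10, adjusted p = 2.9e-16). AMOTL1, an angiomotin that binds YAP, was at 0.0606, 0.446 and 0.281 CPM against 46.5, 44.4 and 52.0 CPM (log2 fold change 7.40 ± 0.20, adjusted p = 6e-15, and a log2 fold change of 8.04 without control replicate B). DUSP4, an ERK phosphatase, was at 129, 126 and 132 CPM against 455, 504 and 542 CPM, 3.88-fold higher. Within the same list SPRY1, a receptor feedback inhibitor, was 5.65-fold lower (log2 fold change -2.50 ± 0.11, adjusted p = 1.9e-12) and the YAP target ANKRD1 11.6-fold lower (log2 fold change -3.54 ± 0.34, adjusted p = 7.1e-08). DUSP5, at 796 ± 22.6 CPM in the controls and 639 ± 32.1 CPM in the shRNA libraries, missed the fold threshold.

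Growth factor receptors and EGF ligands were split, with 10 of 33 higher, 9 lower, 10 not called and 4 below the filter. The 2 largest increases were NTSR1 and FGF19, given above. ERBB3, the kinase-impaired partner of ERBB2, was at 353, 348 and 332 CPM in the controls and 70.2, 73.0 and 69.6 CPM in the shRNA libraries, 4.85-fold lower (log2 fold change -2.28 ± 0.06, adjusted p = 2.7e-15). NTRK2, the neurotrophin receptor TRKB, was at 124, 112 and 117 CPM against 7.69, 9.34 and 7.83 CPM (log2 fold change -3.83 ± 0.09, adjusted p = 5.2e-16). EGFR, at 198 ± 6.70 CPM in the controls and 284 ± 8.22 CPM in the shRNA libraries, and ERBB2, at 144 ± 2.79 CPM in the controls and 105 ± 12.4 CPM in the shRNA libraries, both missed the fold threshold, which EGFR passed with upper-quartile factors (log2 fold change 0.61).

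**Figure D4:**
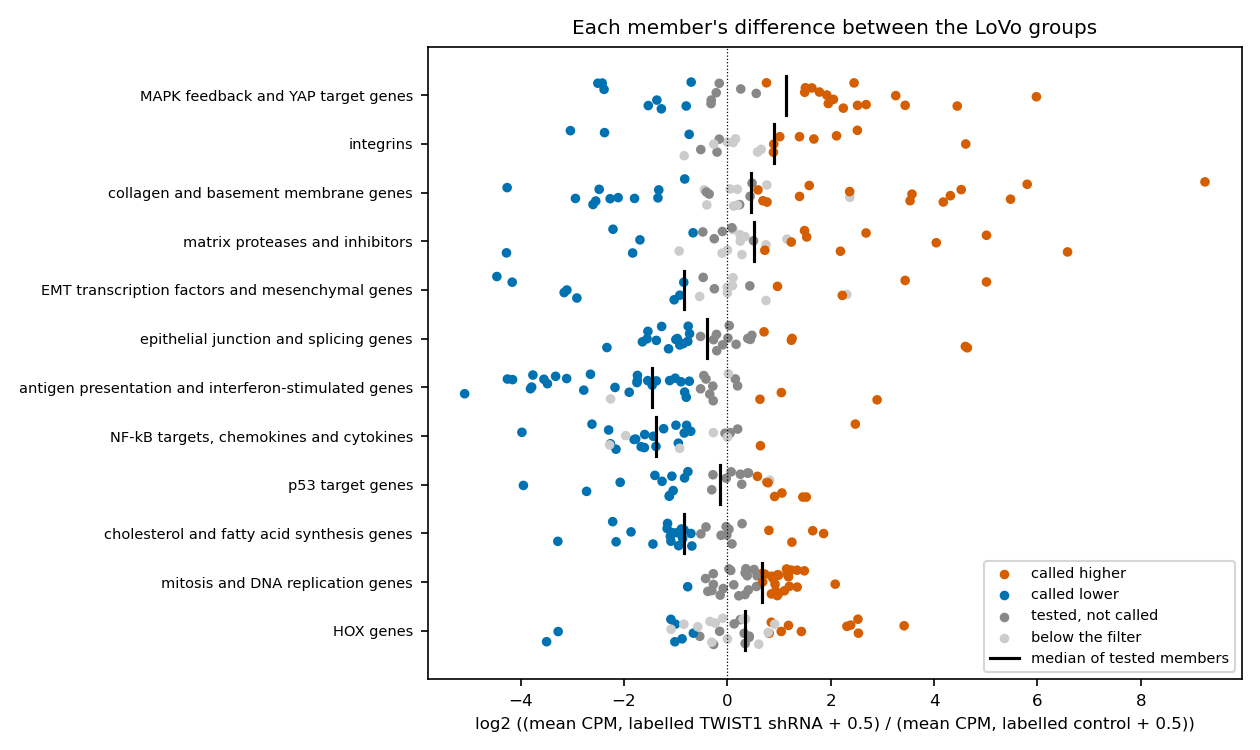
Each point is 1 gene of the named list, placed at the log2 ratio of the group mean CPM (each + 0.5), so that 0 on the horizontal axis means equal means and positive values mean higher with the shRNA label. Colours give the call, grey points were not called or not tested, and black bars give the median of the tested members on this scale. The interferon and NF-kB lists lie mostly left of 0, and the MAPK and YAP list mostly right.

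Innate immune genes were mostly lower. Of 39 genes of antigen presentation and interferon response, 26 were lower, 3 higher, 8 not called and 2 below the filter, with a median log2 fold change of -1.52. OAS2, an interferon-induced sensor of double-stranded RNA, was at 40.7, 36.4 and 36.0 CPM in the controls and 0.575, 0.525 and 0.777 CPM in the shRNA libraries, 60.2-fold lower (log2 fold change -5.89 ± 0.16, adjusted p = 3.6e-15). IFI44L, another interferon-stimulated gene, had 74, 97 and 73 counts against 1, 2 and 1 (log2 fold change -5.79 ± 0.40, adjusted p = 1.1e-09). HLA-B, a class I heavy chain, fell from 448 ± 1.89 to 252 ± 13.8 CPM (log2 fold change -0.83 ± 0.06, adjusted p = 1.1e-09). HLA genes vary between people and resemble each other, so their counts depend on how well reads map to the reference. Against this direction, B2M, the light chain of class I molecules, was at 34.4, 37.0 and 35.7 CPM in the controls and 265, 283 and 260.1 CPM in the shRNA libraries, 7.54-fold higher (log2 fold change 2.91 ± 0.06, adjusted p = 4.5e-16). The interferon regulatory factor gene IRF7 was 2.09-fold higher (log2 fold change 1.06 ± 0.09, adjusted p = 1.9e-08).

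Targets of NF-kB, chemokines and cytokines showed the same predominance, with 18 of 29 lower, 2 higher, 3 not called and 6 below the filter. NFKBIA, the inhibitor IκBα and itself an NF-kB target, was at 235, 245 and 236 CPM in the controls and 48.8, 52.6 and 58.2 CPM in the shRNA libraries, 4.49-fold lower (log2 fold change -2.17 ± 0.07, adjusted p = 3.4e-14). TNFAIP3, the deubiquitinase A20 that ends NF-kB signalling, was at 73.3, 68.0 and 69.4 CPM against 22.9, 20.7 and 21.6 CPM (log2 fold change -1.69 ± 0.07, adjusted p = 2.1e-12). The paper lists TNFAIP3 among the genes that were higher in TWIST1 knockout and knockdown cells, opposite to its direction here. Apart from SPON2, the other genes of the paper's lists were not compared with the paper here. The cytokine gene IL32 was 16.5-fold lower, from 163 ± 5.07 to 9.87 ± 1.02 CPM, and CSF2, which codes for GM-CSF, had 52, 61 and 65 counts against 1, 4 and 1. The cytokine gene LIF went against the rest, from 28.4, 24.6 and 28.9 CPM to 167, 143 and 152 CPM, 5.65-fold higher (log2 fold change 2.50 ± 0.08, adjusted p = 3.4e-14). NFKB2, a subunit of the non-canonical pathway, was 1.56-fold higher (log2 fold change 0.64 ± 0.06, adjusted p = 5.7e-08).

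Direct targets of p53 were divided, with 11 of 27 lower, 7 higher, 8 not called and 1 below the filter. CDKN1A, the cell cycle inhibitor p21, was at 665, 648 and 665 CPM in the controls and 612, 720.2 and 748 CPM in the shRNA libraries, groups that overlapped (log2 fold change 0.07 ± 0.07, adjusted p = 0.35). MDM2, the ubiquitin ligase of p53, was at 398, 414 and 396 CPM against 158, 148 and 150.1 CPM, 2.65-fold lower, and CCNG1 (cyclin G1) at 767, 851 and 757 CPM against 117, 122 and 119 CPM, 6.63-fold lower. SPATA18, a mitochondrial quality control gene, was 22.3-fold lower (log2 fold change -4.49 ± 0.20, adjusted p = 2.4e-12). TP53I3 and the kinase gene PLK3 were 3.05-fold and 2.78-fold higher (log2 fold changes 1.62 ± 0.14 and 1.47 ± 0.07).

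DNA mismatch repair corrects replication errors through MutS and MutL protein pairs, and LoVo is known as a mismatch repair-deficient line. Of 11 repair genes with MGMT, 5 were lower, 3 higher and 3 not called. MSH6, a MutS subunit, was at 95.9, 98.7 and 92.3 CPM in the controls and 49.9, 48.2 and 41.7 CPM in the shRNA libraries (log2 fold change -1.04 ± 0.07, adjusted p = 1e-09), and MSH3, another MutS subunit, at 40.9, 44.9 and 37.6 CPM against 6.17, 5.66 and 8.05 CPM, 6.20-fold lower (log2 fold change -2.63 ± 0.12, adjusted p = 4.6e-12). MLH3 was 2.55-fold lower (log2 fold change -1.35 ± 0.10, adjusted p = 3.9e-09), while the exonuclease gene EXO1 was 2.15-fold and PMS1 2.01-fold higher.

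Proliferation genes were, with 1 exception, higher where they were called. All 42 genes of mitosis and DNA replication were tested, 22 were higher, 1 lower and 19 not called, with a median log2 fold change of 0.68. CDC6, which loads the replicative helicase, was at 40.7, 42.2 and 41.1 CPM in the controls and 180.5, 179 and 172 CPM in the shRNA libraries, 4.29-fold higher (log2 fold change 2.099 ± 0.06, adjusted p = 9.1e-15). RRM2, a subunit of ribonucleotide reductase, was at 134, 131 and 132 CPM against 367, 385 and 366 CPM (log2 fold change 1.49 ± 0.06, adjusted p = 2.7e-13). The origin recognition gene ORC1 was the exception and fell from 46.5 ± 2.03 to 27.1 ± 1.97 CPM (log2 fold change -0.78 ± 0.08, adjusted p = 1.1e-07). Cyclins B1 and B2 were not called, with CCNB1 at 139 ± 7.37 CPM in the controls and 184 ± 7.87 CPM in the shRNA libraries and CCNB2 at 98.8 ± 2.14 CPM in the controls and 100.8 ± 2.19 CPM in the shRNA libraries.

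The factor SREBP2 turns on sterol synthesis genes when cell cholesterol is low. Of 29 genes of cholesterol and fatty acid synthesis, 17 were lower, 4 higher and 8 not called, with a median log2 fold change of -0.84. INSIG1, a sterol sensor that holds SREBP in place, was at 147, 149 and 151 CPM in the controls and 13.4, 16.6 and 14.5 CPM in the shRNA libraries, 10.0-fold lower (log2 fold change -3.33 ± 0.08, adjusted p = 7.7e-16). HMGCS1, an early enzyme of the mevalonate pathway, was at 94.95, 100.1 and 92.8 CPM against 22.7, 21.5 and 16.4 CPM (log2 fold change -2.25 ± 0.09, adjusted p = 1.3e-12). SREBF2, which codes for SREBP2, fell from 280.2 ± 7.23 to 153 ± 16.8 CPM (log2 fold change -0.87 ± 0.07, adjusted p = 8.7e-09) and SREBF1, the regulator of fatty acid synthesis, rose from 230.2 ± 17.8 to 402 ± 31.8 CPM (log2 fold change 0.81 ± 0.07, adjusted p = 1.9e-08). The fatty acid elongase gene ELOVL6 was 3.22-fold and the mevalonate pathway kinase gene PMVK 3.84-fold higher.

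Of 31 hypoxia and glycolysis genes, 9 were higher, 3 lower, 18 not called and 1 below the filter. NDRG1, a hypoxia- and stress-induced gene, was at 16.7, 15.9 and 16.8 CPM in the controls and 190.2, 231 and 261 CPM in the shRNA libraries, 13.8-fold higher (log2 fold change 3.79 ± 0.10, adjusted p = 5.7e-15), and the aldolase gene ALDOC was 3.03-fold higher. PDK1, a kinase that inhibits pyruvate dehydrogenase, was 2.39-fold lower (log2 fold change -1.26 ± 0.08, adjusted p = 4.1e-10), and the hexokinase gene HK2 1.70-fold lower. CA9, a carbonic anhydrase that hypoxia strongly induces, had at most 2 counts in any library. VEGFA, at 161 ± 6.25 CPM in the controls and 219 ± 9.02 CPM in the shRNA libraries, missed the fold threshold.

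Genes of the ATF4 amino acid and stress response were more often higher, with 12 of 25 higher, 2 lower, 9 not called and 2 below the filter. STC2, a secreted stress glycoprotein, was at 32.6, 35.5 and 37.3 CPM in the controls and 243, 262 and 257 CPM in the shRNA libraries, 7.23-fold higher (log2 fold change 2.85 ± 0.07, adjusted p = 9.5e-16). ASNS, asparagine synthetase, was at 14.4, 11.9 and 12.4 CPM against 52.3, 45.1 and 47.9 CPM (log2 fold change 1.92 ± 0.09, adjusted p = 1.1e-11). ATF4 itself was not called, at 707 ± 8.79 CPM in the controls and 649 ± 7.95 CPM in the shRNA libraries. The proline synthesis gene ALDH18A1 was 2.51-fold lower (log2 fold change -1.33 ± 0.07, adjusted p = 1.3e-11) and the serine hydroxymethyltransferase gene SHMT2 1.97-fold lower (log2 fold change -0.98 ± 0.06, adjusted p = 7e-11).

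The 13 protein genes of the mitochondrial genome, which code for respiratory chain subunits, were all higher, with a median log2 fold change of 1.95. Their rise was uneven. MT-CO3 was at 1456, 1224 and 1358 CPM in the controls and 12100.3, 6628 and 6138 CPM in the shRNA libraries, 6.16-fold higher (log2 fold change 2.62 ± 0.19, adjusted p = 1.3e-09). MT-CO1 was at 9754, 8343 and 8712 CPM against 21446, 12463 and 10791 CPM (log2 fold change 0.74 ± 0.17, adjusted p = 0.0009). In both genes shRNA library 1 was far above its group. Without this library the log2 fold change of MT-CO1 was 0.41 and no longer called, and the difference in the mitochondrial share was 2.16 percentage points, against 3.84 with it.

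Cancer-testis antigen genes, which are normally silent outside the germ line, had few or no counts in both groups for 30 of 35, which fell below the filter, while 3 were higher and 2 lower. MAGEA3 was at 3.15, 3.22 and 4.27 CPM in the controls and 71.7, 76.5 and 83.0 CPM in the shRNA libraries, 21.7-fold higher, while its near-identical neighbour MAGEA6 was at 7.58, 8.32 and 8.60 CPM against 1.20, 1.46 and 1.499 CPM, 5.89-fold lower. Reads that fit both copies are not told apart by such counts, so the split between MAGEA3 and MAGEA6 is uncertain. DDX43, an RNA helicase gene, was 13.5-fold lower (log2 fold change -3.74 ± 0.24, adjusted p = 2.8e-10). MAGEA2 had 14, 95 and 26 counts in the shRNA libraries and 0 in the controls, and MAGEA1 had 1 count in all.

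HOX genes keep the position of a cell along the body axis, and hindgut expresses the posterior members. Of 39 HOX genes, 10 were higher, 7 lower, 9 not called and 13 below the filter, against 26.6% higher and 26.1% lower over all genes tested, and nothing is read from the count of so few. The posterior gene HOXA13 was at 171, 182 and 167 CPM in the controls and 14.4, 13.02 and 17.2 CPM in the shRNA libraries, 11.6-fold lower (log2 fold change -3.54 ± 0.09, adjusted p = 1.3e-15), and HOXD13 had 108, 190 and 172 counts against 14, 5 and 5 (log2 fold change -4.26 ± 0.31, adjusted p = 2.1e-09, and a log2 fold change of -4.85 without shRNA replicate 1). HOXC10 had 0 counts in each control and 96, 72 and 96 in the shRNA libraries, at least 29.2-fold higher, and HOXB2 had 9, 5 and 6 counts against 79, 58 and 73 (log2 fold change 3.36 ± 0.33, adjusted p = 8e-08).

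Of 45 axon guidance genes, a list that holds ROBO2, 12 were lower, 8 higher, 17 not called and 8 below the filter. SEMA5A, a semaphorin, was at 16.01, 17.1 and 17.5 CPM in the controls and 0.628, 0.876 and 0.944 CPM in the shRNA libraries, 20.7-fold lower (log2 fold change -4.37 ± 0.18, adjusted p = 1.4e-12). UNC5B, a netrin receptor, was at 38.2, 38.1 and 39.4 CPM against 190.0, 217 and 235 CPM, 5.55-fold higher (log2 fold change 2.47 ± 0.08, adjusted p = 3e-14), and ROBO3 was 5.26-fold higher (adjusted p = 1.5e-12). ROBO1, below the filter, had 29, 40 and 22 counts in the controls and 0, 1 and 2 in the shRNA libraries.

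Markers of other cell types were read in the same libraries. For pancreatic duct and exocrine cells, 4 of 13 genes passed the filter. KRT7, a keratin of simple and ductal epithelia, was at 10.0, 11.1 and 11.8 CPM in the controls and 394, 442 and 462 CPM in the shRNA libraries, 39.5-fold higher (log2 fold change 5.30 ± 0.09, adjusted p = 2.5e-17), whereas the chloride channel CFTR was at 360.5, 374 and 335 CPM against 19.8, 22.1 and 19.7 CPM, 17.4-fold lower. The exocrine genes CPA1, CPB1, CELA3A and CLPS had no count in any library. PDX1 was at 4.77 ± 0.677 CPM in the controls and 3.38 ± 0.410 CPM in the shRNA libraries and was not called, but passed the threshold without control library C or shRNA library 3 (log2 fold changes -0.62 and -0.58), and ONECUT1 was called higher at 1.98-fold, a call lost without control library C or shRNA library 1 (log2 fold changes 0.71 and 0.72). The summed level of the 13 genes was 352 to 392 CPM in the controls and 420.5 to 489.5 CPM in the shRNA libraries.

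The packaging cells are of embryonic kidney origin, and 3 of 10 markers of that kind passed the filter. PAX2, a kidney developmental factor, was at 0.485, 0.743 and 1.18 CPM in the controls and 14.3, 15.2 and 18.9 CPM in the shRNA libraries, 20.1-fold higher (log2 fold change 4.31 ± 0.23, adjusted p = 2.9e-11), and PAX8 was at 1.39, 1.58 and 0.955 CPM against 8.63, 8.29 and 11.05 CPM (log2 fold change 2.82 ± 0.22, adjusted p = 5.9e-09). Of the 3, 2 were higher and 1 was lower. The neurofilament genes NEFL and NEFM and INA were below 2 CPM on average in both groups and CDH6 had no count, and the summed level of the 10 genes was 12.1 to 12.9 CPM in the controls and 29.5 to 36.7 CPM in the shRNA libraries.

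Of 13 fibroblast and mesothelial markers 5 passed the filter, and the summed level of all 13 was 18.6 to 24.6 CPM in the controls and 238 to 267 CPM in the shRNA libraries. COL1A1, given above, and CALB2 (calretinin), at 0.788, 1.09 and 1.12 CPM against 40.5, 35.5 and 41.4 CPM, 39.1-fold higher, were among the 3 that were higher. The third was MSLN, the surface glycoprotein mesothelin, which many carcinomas also express, and it made up most of the sum, from 11.1 ± 1.499 to 148 ± 11.2 CPM (named after its values were seen). PDGFRB was lower at 2.39-fold, and UPK3B was called lower with groups that overlapped, 2.97, 1.54 and 3.32 CPM against 1.73, 1.17 and 0.611 CPM, a call lost without control library C. The fibroblast genes COL1A2, COL3A1, LUM, PDGFRA and THY1 were below 2 CPM on average in both groups, and DCN had no count in any library. None of the 7 endothelial markers passed the filter, with summed levels of at most 0.618 CPM in the controls and 2.35 CPM in the shRNA libraries. Of 10 blood cell markers, HBA1, a gene with a near-identical copy, was called lower with overlapping groups, and PTPRC had 1 count in all. What part other cells had in the differences above was not tested.

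Differences were not spread evenly over the genome. The median log2 fold change of the tested genes was below 0 by the most on chromosomes 12 (-0.48, 782 genes), 7 (-0.47, 722 genes), 5 (-0.34, 630 genes) and 15 (-0.31, 469 genes). It was highest on chromosomes 8 (0.45, 490 genes), 19 (0.28, 952 genes), 3 (0.27, 819 genes) and 17 (0.21, 886 genes). On chromosome 12, 45.9% of the tested genes were lower and 18.7% higher, and on chromosome 8, 16.7% were lower and 42.9% higher, against 26.1% and 26.6% of all genes tested. Copy number was not measured in these samples, and no test was made between chromosomes. Genes named above that lie on chromosomes 12 and 8 include LGR5 and ERBB3 on the former and CDH17 and ESRP1 on the latter. These genes were named for their large changes, so the sizes of their changes are not set against those medians.

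**Figure D5:**
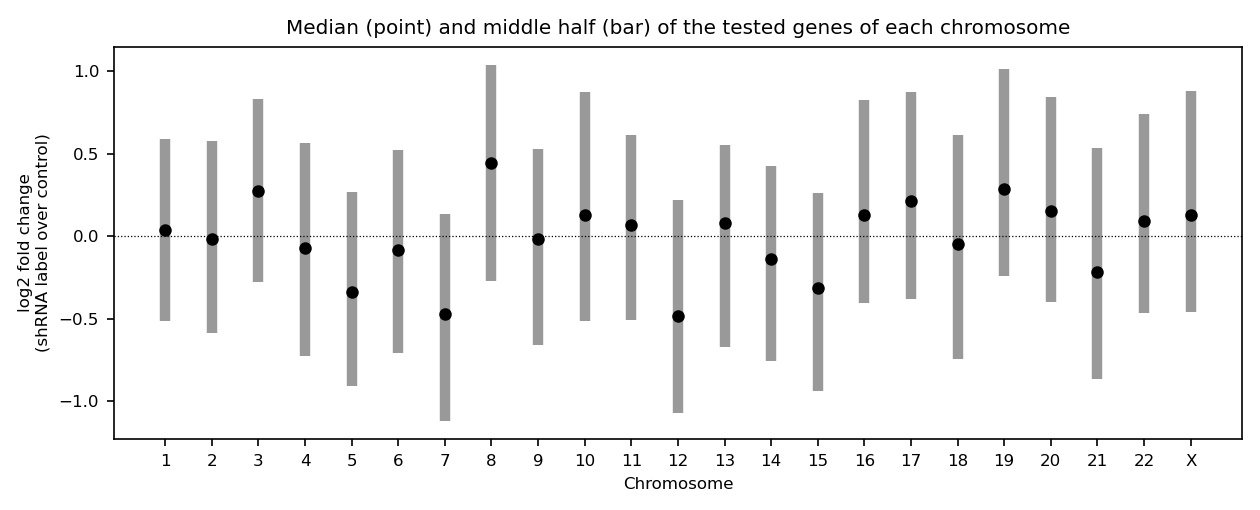
For each chromosome (horizontal axis) the point is the median and the bar the range from the lower to the upper quartile of the log2 fold change of its tested genes, with positive values higher with the shRNA label. The medians of chromosomes 5, 7, 12 and 15 lie lowest and that of chromosome 8 highest.

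TWIST1 ChIP-seq from LoVo cells, a single library without replicate, was set beside these calls. The paper shows a western blot of the TWIST1 pull-down from LoVo cells. TWIST1 was at 0 CPM in every control-labelled LoVo RNA library, and how much TWIST1 the ChIP cells held was not tested here. The peaks are therefore given as listed and are not read as sites that TWIST1 bound. The deposited list held 333621 peaks, called at a p-value threshold of 0.05, of which 1550 had a q-value of at most 0.05. A peak lay within 3000 bp of the 5′ end of 59.1% of the protein-coding genes that were higher, 58.9% of those lower and 57.8% of those not called, against 58.4% of all 12490 tested. With a q-value of at most 0.05 these were 14 genes that were higher (0.450%, 95% Wilson interval 0.268 to 0.754%), 5 that were lower (0.152%, 0.0651 to 0.356%) and 22 not called (0.361%, 0.238 to 0.546%). The intervals overlap. None of the 167 genes that the naming rule chose had such a peak.

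Of the 14 genes, KRT15, a keratin of basal epithelial cells, had the largest difference, with 2.12, 2.48 and 2.08 CPM in the controls and 19.8, 17.5 and 16.9 CPM in the shRNA libraries, 8.11-fold higher (log2 fold change 3.01 ± 0.15, adjusted p = 1.2e-11). The others of the 14 included LAMP1, a lysosomal membrane protein, at 159 ± 1.64 CPM in the controls and 329.7 ± 24.4 CPM in the shRNA libraries, ADAM17, the sheddase of TNF, at 43.99 ± 1.23 CPM in the controls and 104 ± 0.964 CPM in the shRNA libraries, and the orphan nuclear receptor gene NR4A2 at 5.60 ± 1.62 CPM in the controls and 17.6 ± 2.42 CPM in the shRNA libraries. Of the 5 lower genes PARP14, an interferon-linked ADP-ribosyltransferase, had the largest difference, with 98.5, 93.5 and 88.5 CPM in the controls and 35.4, 30.7 and 31.1 CPM in the shRNA libraries, 2.89-fold lower (log2 fold change -1.53 ± 0.07, adjusted p = 8.9e-12). RAC1, a GTPase of cell migration, fell from 571 ± 10.6 to 352 ± 9.34 CPM (log2 fold change -0.70 ± 0.05, adjusted p = 4.9e-09). The KRT15 peak had a fold enrichment of 4.07 (q = 0.02), its summit 137 bp inside the gene, and the PARP14 peak one of 4.13 (q = 0.026), its summit 743 bp inside.

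The 300 bases around these 2 summits are printed to show what E-box letters they hold, from the plus strand of hg38, for KRT15 at chr17:41522242-41522541 and for PARP14 at chr3:122681432-122681731. Capitals mark each CANNTG, the E-box pattern that reads as a CANNTG on both strands. Each window held 2, and neither held CATCTG nor its reverse complement CAGATG, which CANNTG includes. CANNTG was present in 83.2% of the 1550 windows of this length around summits with a q-value of at most 0.05 and in 68.7% of all 35116 RefSeq promoters of the same length, and CATCTG or CAGATG in 13.3% and 14.7%. CATATG, another CANNTG form, was in 4.58% and 3.04%. Promoters are not a matched background for windows around summits, so the differences between these shares are not read as enrichment. Among promoters of genes called, CANNTG was present in 68.2% of those higher and 68.7% of those lower, and in 65.7% of those not called. In the same order CATCTG or CAGATG was in 13.9%, 15.2% and 11.9%, and CATATG in 2.24%, 2.62% and 1.6%. No test was made between these shares.
KRT15: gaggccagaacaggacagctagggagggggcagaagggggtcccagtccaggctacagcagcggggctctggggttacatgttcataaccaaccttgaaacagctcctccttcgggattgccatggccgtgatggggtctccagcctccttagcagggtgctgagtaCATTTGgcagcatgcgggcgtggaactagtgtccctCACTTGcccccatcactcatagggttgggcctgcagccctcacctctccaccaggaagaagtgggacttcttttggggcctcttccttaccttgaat
PARP14: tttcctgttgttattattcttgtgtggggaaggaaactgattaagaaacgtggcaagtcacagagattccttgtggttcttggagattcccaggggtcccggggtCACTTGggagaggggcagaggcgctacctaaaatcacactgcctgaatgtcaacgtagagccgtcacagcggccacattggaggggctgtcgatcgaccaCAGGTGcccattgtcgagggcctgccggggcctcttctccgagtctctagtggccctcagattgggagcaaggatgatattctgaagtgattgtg

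Finally, the size of the split was set beside the rest of the series. Across 13815 protein-coding genes the Pearson correlation of log2(mean CPM + 1) was 0.860 between the LoVo groups, 0.986 between MDST8 WT and the MDST8 knockout clones, and 0.674 and 0.712 between MDST8 WT and the LoVo control and shRNA groups. Genes more than 8-fold apart on this scale numbered 541 between the LoVo groups and 4 between MDST8 WT and the clones. These values are across genes, which are not independent replicates, the MDST8 knockout mean is over 15 libraries of 5 clones, and the difference between the lines was not tested. Whether a TWIST1 hairpin or another difference between the cells of the 2 LoVo groups went with any of these values cannot be told apart. The reason is that each group was sampled as a unit and the targeted gene went against the labels.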

How the data were processed

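Polyadenylated RNA of the 6 LoVo libraries was sequenced. According to the submitters' processing notes, the file header and the study's methods, the authors trimmed reads with Trim Galore 0.6.6, aligned them to hg38 with HISAT2 2.1.0, sorted them with SAMtools 1.6 and deposited raw counts per gene, made by featureCounts 2.0.0 on GENCODE genes. The count command in the header set no strand option, so overlapping and antisense genes share reads, and reads shared by near-identical copies cannot be assigned. For the ChIP library the authors aligned with Bowtie2 2.4.5, called peaks with MACS2 2.2.7.1 and deposited, for each peak, a score, the fold enrichment, and the −log10 of its p-value and of its q-value. Only the q-value, the fold enrichment and the summit were used here.

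From the deposited counts, genes with a geometric mean of (RPM + 1), minus 1, of at least 1 over the 6 libraries were tested by edgeR 4.0.16 (TMM, glmQLFit, glmQLFTest) in R 4.3.3, without covariates. Permutation tests were exact and two-sided, with a smallest p of 0.1. Intervals (95%) and the floor of 3 counts cover counting error only. On data simulated for this comparison over 14270 genes, 190 of 200 changed genes were called, and 6 unchanged ones. The simulation changed only those 200 genes, whereas 52.7% of the genes tested were called here. It therefore cannot check the normalisation, which takes most genes as unchanged. The alternatives were DESeq2 1.42.0, limma 3.58.1 (voom, and the study's log2 counts), other size factors and filters, and each library left out. Genes named were TWIST1, SPON2 and SPP1, the 12 leading protein-coding genes in each direction (called, groups apart, at least 10 CPM in the higher group, ranked by the ratio of means with 0.5 added), and in each list its first 2 genes and the called ones with the 2 largest and 2 smallest log2 fold changes. Members and lists were chosen with earlier results of these data known. Y-linked genes were left out, and MDST8 peaks were not used here. Some genes that the naming rule chose are not reported here.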

Additional observations from a re-analysis of the deposited data

How the results depend on the processing

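The numbers of genes called were 3795 higher and 3725 lower and stayed within 1.5 times of this under every alternative, from 3456 higher with a geometric mean without the offset (3535 lower) and 3299 lower with upper-quartile factors to 5420 and 5024 without a filter, where 31917 genes were tested. DESeq2 called 3802 and 3615, limma with voom 3781 and 3717, and limma on log2(count + 1) 3789 and 3747. Upper-quartile factors moved the median of all genes to a log2 fold change of 0.10 and gave 4263 and 3299. Without 1 library the calls ran from 3691 to 3922 higher and from 3577 to 3716 lower, and the difference in the mitochondrial share from 2.16 to 4.87 percentage points.

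Of 868 counts of list members under the alternatives, 8 of those higher and 15 of those lower moved by over 1.5 times. With the geometric mean without the offset, fewer genes were tested, and the counts were 1 higher and 2 lower for TWIST1 and its partners, 5 lower for the mesenchymal list, 0 higher for intestinal identity and 1 lower for fibroblast and mesothelial markers. Upper-quartile factors left 0 lower in the SPON2–SPP1 list. Without a filter, more genes were tested, and 5 integrins, 4 cancer-testis genes, 11 HOX genes, 4 fibroblast or mesothelial markers and 2 blood markers were lower and 4 endothelial markers higher, and with edgeR's own filter 2 blood markers were lower and 1 endothelial marker higher. With 1 library left out, 1 to 3 genes of the TWIST1 list were higher and 3 to 4 lower, 1 to 2 pancreatic markers were higher and 1 to 2 lower, and 1 to 2 fibroblast or mesothelial markers were lower, for which the cause was not tested. Of the genes at 0 in 1 group, a minimum of 20 counts gave 106 at 0 in the controls and 12 at 0 in the shRNA libraries, and a minimum of 500 gave 11 and 0. CCNB2, not called, changed sign, with a log2 fold change of -0.027 without a filter and from -0.0021 to 0.070 with 1 library left out. No paired analysis was possible because the control libraries carry letters and the shRNA libraries numbers, so that the groups share no replicate number. A gene with few counts in both groups was limited by depth, and none such was read as absent.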

Other observations

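Gene families outside the lists above were also read, chosen after their values were seen, so the counts are a description, against 26.6% of all genes tested that were higher and 26.1% that were lower. Claudins, the sealing proteins of tight junctions, were lower in 7 of the 9 members that passed the filter, higher in 0 and not called in 2. CLDN2, which forms a cation pore, was at 58.3, 59.8 and 59.3 CPM in the controls and 1.52, 1.81 and 1.39 CPM in the shRNA libraries, 37.6-fold lower (log2 fold change -5.23 ± 0.11, adjusted p = 3.4e-16 by edgeR), and CLDN1 fell from 32.7 ± 2.81 to 3.6001 ± 0.292 CPM (mean ± SD, n = 3 in each group). CLDN7 was not called, at 186 ± 4.12 CPM in the controls and 175 ± 16.4 CPM in the shRNA libraries. Kallikrein-related peptidases are secreted serine proteases of epithelia, and their genes lie together on chromosome 19. Of 15 such genes 6 passed the filter, of which 5 were higher and 0 lower. KLK5, KLK6, KLK7 and KLK8 were at or near 0 CPM in the controls and passed the filter only through the shRNA libraries. That count was therefore partly fixed by the filter, and nothing is read from it. KLK7 was at 0, 0 and 0.0562 CPM in the controls and 34.4, 43.5 and 44.03 CPM in the shRNA libraries, and KLK8 at 0, 0 and 0 CPM against 17.8, 18.8 and 16.4 CPM. Of these, KLK6 also belongs to the protease list above.

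Enzymes that conjugate or oxidise foreign compounds were mostly lower. All 5 UDP-glucuronosyltransferase genes that passed the filter were lower, among them UGT1A1, which conjugates bilirubin, from 45.7 ± 2.60 to 2.45 ± 0.879 CPM. The UGT1A genes share their last exons, so their counts are not independent of each other. Of 16 aldehyde dehydrogenase genes, 11 were lower and 1 higher. ALDH1A1, which makes retinoic acid, was at 54.6, 53.5 and 51.8 CPM in the controls and 1.99, 2.04 and 1.55 CPM in the shRNA libraries, 28.6-fold lower (log2 fold change -4.83 ± 0.12, adjusted p = 1e-15 by edgeR). ALDH2, the mitochondrial acetaldehyde dehydrogenase, fell from 271 ± 4.76 to 35.6 ± 2.57 CPM. Of 14 glutathione transferase genes 8 were lower and 2 higher. The apolipoprotein L genes, which interferon induces, were lower in 4 of 4, APOL1 from 102 ± 1.65 to 3.44 ± 1.04 CPM.

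Forkhead factors were split, with 8 of 26 higher and 10 lower. FOXA1, a pioneer factor of gut endoderm, was at 53.8, 55.6 and 54.6 CPM in the controls and 5.23, 3.91 and 4.28 CPM in the shRNA libraries (log2 fold change -3.604 ± 0.10, adjusted p = 1.1e-14 by edgeR), and FOXA2 at 52.99, 54.9 and 56.1 CPM against 4.29, 4.55 and 4.55 CPM. Their relative FOXA3 was higher, at 0.692 ± 0.303 CPM in the controls and 9.47 ± 1.04 CPM in the shRNA libraries. SOX8 was near 0 in the controls and at 14.8, 16.2 and 18.1 CPM in the shRNA libraries, while SOX9, a crypt factor, was not called, at 235 ± 4.31 CPM in the controls and 311 ± 21.1 CPM in the shRNA libraries. Of 82 genes of cytosolic ribosomal proteins that passed the filter, 58 were lower and 1 higher, with a median log2 fold change of -0.78. RPLP0, the large subunit's stalk protein, fell from 6829 ± 134 to 2748 ± 151 CPM.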
